A study of Mus musculus with 12 samples.

Results

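Cells of fat tissue keep peroxides and other reactive by-products of metabolism low with a shared set of enzymes, and 47 genes of that set were followed here in inguinal white adipose tissue (WAT) of R6/2 and wild type (WT) mice. The genes were chosen by name, as those of the glutathione peroxidases (*Gpx*), peroxiredoxins (*Prdx*), glutathione S-transferases (*Gst* and the microsomal *Mgst*), thioredoxins and their reductases (*Txn*, *Txnrd*), superoxide dismutases (*Sod*), catalase, glutathione synthesis and recycling (*Gclc*, *Gclm*, *Gss*, *Gsr*), *Nqo1* and *Srxn1*. They are 47 of 22180 genes that had a probe set with 1 gene symbol on the array, and 41 of them were among the 14550 genes whose signal passed the level limit. RNA was extracted from the subcutaneous inguinal fat pad of 6 male R6/2 mice and 6 male WT littermates, all 12 weeks old and given no treatment. R6/2 mice model Huntington's disease: their transgene is exon 1 of human huntingtin, in which the CAG repeat is expanded, and the line is kept on a C57BL/6 background, which the WT littermates share. Each mouse had 1 Affymetrix Mouse Gene 2.0 ST array, and signals are given as log2 values, so that 1 unit stands for a change of 2 times. The signal of a probe set depends on its probes as well as on its transcript, so genotypes were compared gene by gene, and the signals of different genes are not set against each other as amounts. The fat pad was measured whole, so fewer cells of a type and less RNA per cell cannot be told apart.

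Glutathione is a small thiol peptide that is made by glutamate-cysteine ligase and glutathione synthetase, and glutathione reductase restores its reduced form with NADPH. Glutathione peroxidases spend it to reduce hydrogen peroxide and lipid peroxides, while glutathione S-transferases couple it to reactive lipids and foreign compounds; the thioredoxin and peroxiredoxin system runs beside it on the same supply of NADPH. Many of these genes are known targets of NRF2, a transcription factor that binds antioxidant response elements together with small MAF proteins, and oxidative metabolism in brown adipocytes makes mitochondrial members such as *Sod2* and *Prdx3* of interest in fat.

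The upstream sequence of a few members is given as a place where NRF2 might bind. The genes shown include the 3 with the smallest p in the comparison of genotypes. RefSeq start sites (GRCm38.p6) gave windows of 250 bases before to 50 after the start for 42 of the 47 genes. Sequence beyond these windows was not searched. The core of the antioxidant response element, searched as TGACNNNGC on both strands, was found in windows of 7 of these 42 genes (16.7%), against 14% of 27025 genes in the same promoter collection. These 7 were *Gclm*, *Gsta3*, *Gstm7*, *Mgst1*, *Sod1*, *Srxn1* and *Txnrd1*. The spelling TGACTCAGC of this core was in none of the 42 and in 0.503% of all genes. The spelling TGAGTCAGC, with G in place of the first C, was not searched, and its share of all genes was not counted. It can be read in the windows of *Gstp1*, *Gstp2* and *Srxn1*. Without that share, this is not a result about the members. Such a match describes letters in a window and is not a measured binding site. The 250 bases before the start are printed 5′ to 3′ on the gene's strand, with a match in capitals; *Gpx1* (chr9:108338830-108339079, plus strand) and *Gpx3* (chr11:54902604-54902853, plus strand) held no match, *Gsta3* (chr1:21240335-21240584, plus strand) had TGACATTGC at positions -121 to -113 from the start, and 1 of the windows of *Txnrd1* (chr10:82858956-82859205, plus strand) had the core on the opposite strand, at positions -92 to -84.
Gpx1: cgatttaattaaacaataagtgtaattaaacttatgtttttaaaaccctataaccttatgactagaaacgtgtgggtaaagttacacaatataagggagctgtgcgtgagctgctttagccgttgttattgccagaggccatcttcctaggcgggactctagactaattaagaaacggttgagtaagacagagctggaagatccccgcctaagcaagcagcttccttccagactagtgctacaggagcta
Gpx3: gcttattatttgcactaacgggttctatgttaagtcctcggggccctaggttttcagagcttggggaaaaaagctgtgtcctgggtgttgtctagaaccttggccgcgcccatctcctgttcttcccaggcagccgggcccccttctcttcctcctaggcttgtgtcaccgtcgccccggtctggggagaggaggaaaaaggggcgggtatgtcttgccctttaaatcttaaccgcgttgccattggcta
Gsta3: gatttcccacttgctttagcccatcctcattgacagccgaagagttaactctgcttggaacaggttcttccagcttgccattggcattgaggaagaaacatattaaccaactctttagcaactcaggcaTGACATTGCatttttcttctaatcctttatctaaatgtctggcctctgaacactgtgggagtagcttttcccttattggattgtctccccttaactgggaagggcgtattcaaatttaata
Txnrd1: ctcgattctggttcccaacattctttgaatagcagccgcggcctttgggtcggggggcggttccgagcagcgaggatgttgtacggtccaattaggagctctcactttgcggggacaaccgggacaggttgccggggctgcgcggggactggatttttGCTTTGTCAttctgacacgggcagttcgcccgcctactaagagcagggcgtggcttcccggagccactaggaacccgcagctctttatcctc

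The arrays differed among themselves in the tissues they held. The mean log2 signal over 13 lymphocyte and lymph node genes ranged from 5.42 to 10.08 in R6/2 and 5.30 to 10.15 in WT mice, and was lowest in R6/2 mice 3 and 4 and WT mouse 4. The mean over 16 skeletal muscle genes ranged from 5.85 to 10.78 in R6/2 and 5.86 to 10.57 in WT mice, and all 16 were higher in R6/2 on average. The mean over 15 macrophage genes was 7.71 ± 0.38 in R6/2 and 8.23 ± 0.37 in WT mice (SD, n = 6 each), with all 15 genes lower in R6/2. Of the 15, 5 were lower at an unadjusted limma p of 0.05 (3.31% of all genes). Mature adipocyte genes such as *Adipoq* and *Plin1*, which define the tissue, were high in every mouse, with a mean over 14 genes of 11.12 ± 0.28 in R6/2 and 11.29 ± 0.31 in WT mice (SD, n = 6 each). Of the 14, 12 were lower and 2 higher in R6/2. At an unadjusted limma p of 0.05, 2 were lower, *Lep* by -1.26 and *Plin4* by -0.42 (3.31% of all genes were lower at this level). The mean over 9 brown adipocyte genes was 9.03 ± 0.77 in R6/2 and 8.09 ± 0.70 in WT mice (SD, n = 6 each), with all 9 higher in R6/2. Of the 9, 3 were higher at an unadjusted limma p of 0.05 (2.53% of all genes).

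The antioxidant enzyme genes were divided between lower and higher values in R6/2 mice. Of the 41 measured genes, 23 were lower and 18 higher in R6/2 mice, and the median log2 difference (R6/2 minus WT) was -0.02, against 0.01 over all 14550 genes. The median size of the difference, whatever its sign, was 0.12 over the members and 0.09 over all genes. None of the 41 passed an adjusted p of 0.05 in limma, which fits all genes together and adjusts by the method of Benjamini and Hochberg. The same was true of all genes (0%), and the lowest adjusted p of a member was 0.630. At an unadjusted limma p of 0.05, which 5.84% of all genes passed, 3 members were lower in R6/2 (*Gpx1*, *Gpx3* and *Gsta3*; 3.31% of all genes were lower at this level) and 0 were higher (2.53% of all genes). With SAM, the method of the study, 0 members had a q under 5% in either direction, against 0.412% of all genes lower and 0.0206% higher. No member had every R6/2 mouse below every WT mouse (0.186% of all genes) or above every WT mouse (0.199%). All 41 measured genes were above the level limit in both genotypes. The differences in the plot of differences by family are therefore given with their intervals, and those of 38 members held 0.

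**Figure D1:**
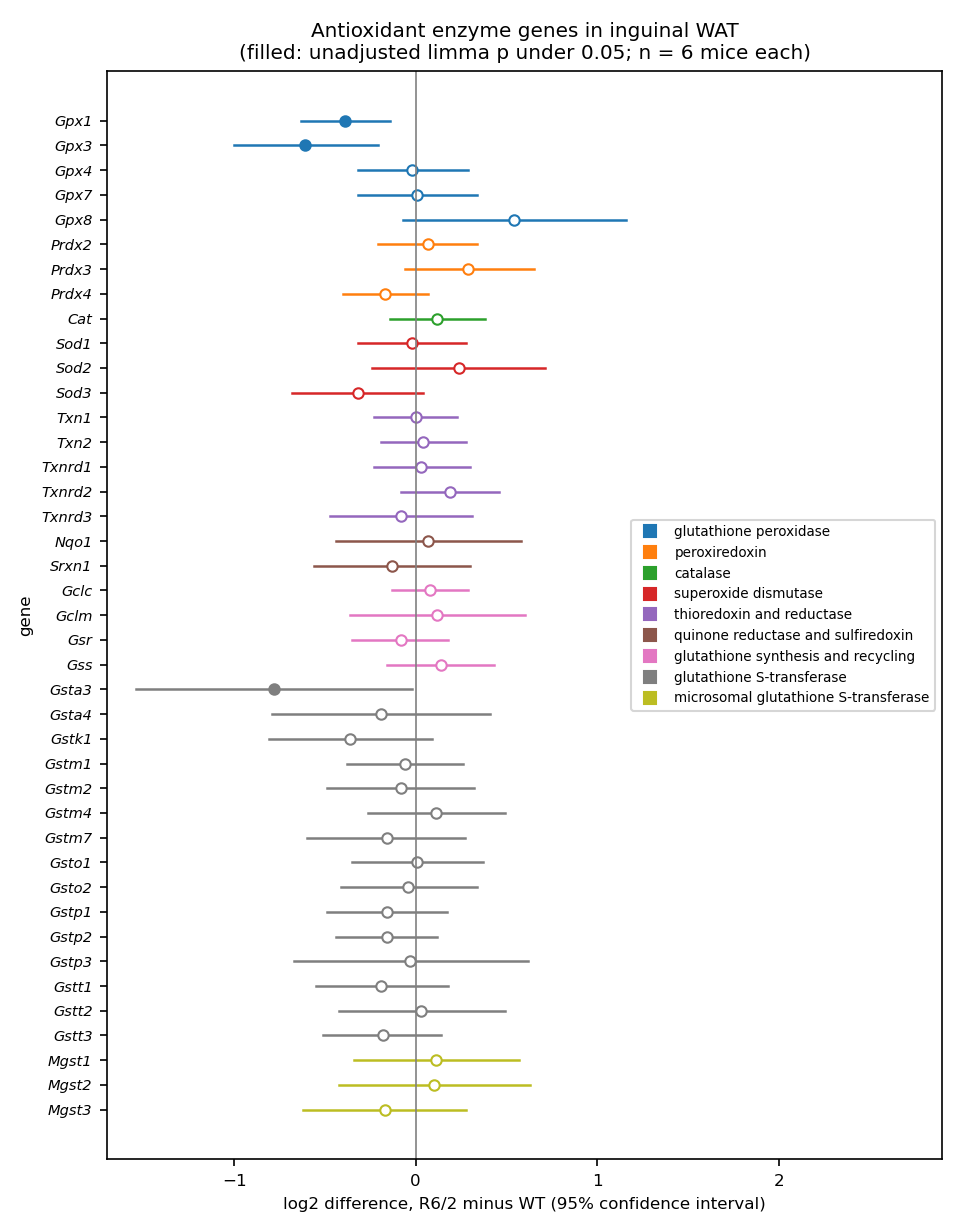
Log2 difference (R6/2 minus WT, x axis) of the 41 measured antioxidant enzyme genes, grouped by family (colour), with 95% confidence intervals from limma over 6 R6/2 and 6 WT mice. The filled points are *Gpx1* at -0.39, *Gpx3* at -0.61 and *Gsta3* at -0.78, the 3 genes with an unadjusted p under 0.05, and the intervals of all other genes cross 0.

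Glutathione peroxidases held the members with the smallest p. *Gpx1*, the selenoenzyme that reduces hydrogen peroxide in the cytosol and mitochondria, lies at chr9:108339080-108340342. Its log2 signal was 9.91, 10.23, 9.84, 10.29, 9.75 and 9.87 in R6/2 mice 1 to 6, against 10.44, 10.45, 10.09, 10.59, 10.35 and 10.29 in WT mice 1 to 6. R6/2 mice 1, 3, 5 and 6 were below every WT mouse, while R6/2 mice 2 and 4 overlapped with the lower WT values. Means were 9.98 ± 0.22 in R6/2 and 10.37 ± 0.17 in WT mice (SD, n = 6 each), a difference of -0.39 (95% interval -0.63 to -0.14), or 0.765 times the WT signal (limma adjusted p = 0.630; SAM q = 8.34%). Taken alone, the exact permutation test gave a two-sided p of 0.0130, not adjusted for the number of genes.

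*Gpx3*, the secreted selenoenzyme found in plasma, is at chr11:54902854-54910387 and showed the larger difference. Signals were 7.30, 7.83, 7.78, 8.56, 7.71 and 7.93 in R6/2 mice 1 to 6, against 8.27, 8.57, 8.12, 8.78, 8.59 and 8.41 in WT mice 1 to 6. All R6/2 mice except mouse 4 were below the lowest WT mouse, and mouse 4 lay in the middle of the WT values. The means of 7.85 ± 0.41 in R6/2 and 8.46 ± 0.24 in WT mice (SD, n = 6 each) differed by -0.61 (95% interval -1.0 to -0.21), or 0.657 times the WT signal (limma adjusted p = 0.632; SAM q = 6.10%). The two-sided exact permutation p was 0.0108, again without adjustment. Both *Gpx1* and *Gpx3* kept an unadjusted limma p under 0.05 when any single mouse was left out.

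The other measured peroxidases had intervals that held 0. *Gpx4*, which reduces lipid peroxides within membranes and guards against ferroptosis, ranged from 7.81 to 8.54 in R6/2 and 7.77 to 8.46 in WT mice, with a difference of -0.02 (95% interval -0.32 to 0.29). *Gpx7*, an enzyme of the endoplasmic reticulum, differed by 0.01 (95% interval -0.32 to 0.34). *Gpx8*, a membrane protein of the same compartment, had a lowest, median and highest signal of 10.35, 10.70 and 11.32 in R6/2, against 9.36, 10.48 and 10.89 in WT mice. WT mice 2 and 3 lay below all R6/2 mice, and the other 4 WT mice lay among them. Its means were 10.75 ± 0.35 in R6/2 and 10.21 ± 0.68 in WT mice (SD, n = 6 each), a difference of 0.54 (95% interval -0.07 to 1.16; limma adjusted p = 0.869). *Gpx2*, *Gpx5* and *Gpx6* were below the level limit, with means of 3.34, 3.87 and 4.68 in R6/2 and 3.99, 3.72 and 4.71 in WT mice.

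**Figure D2:**
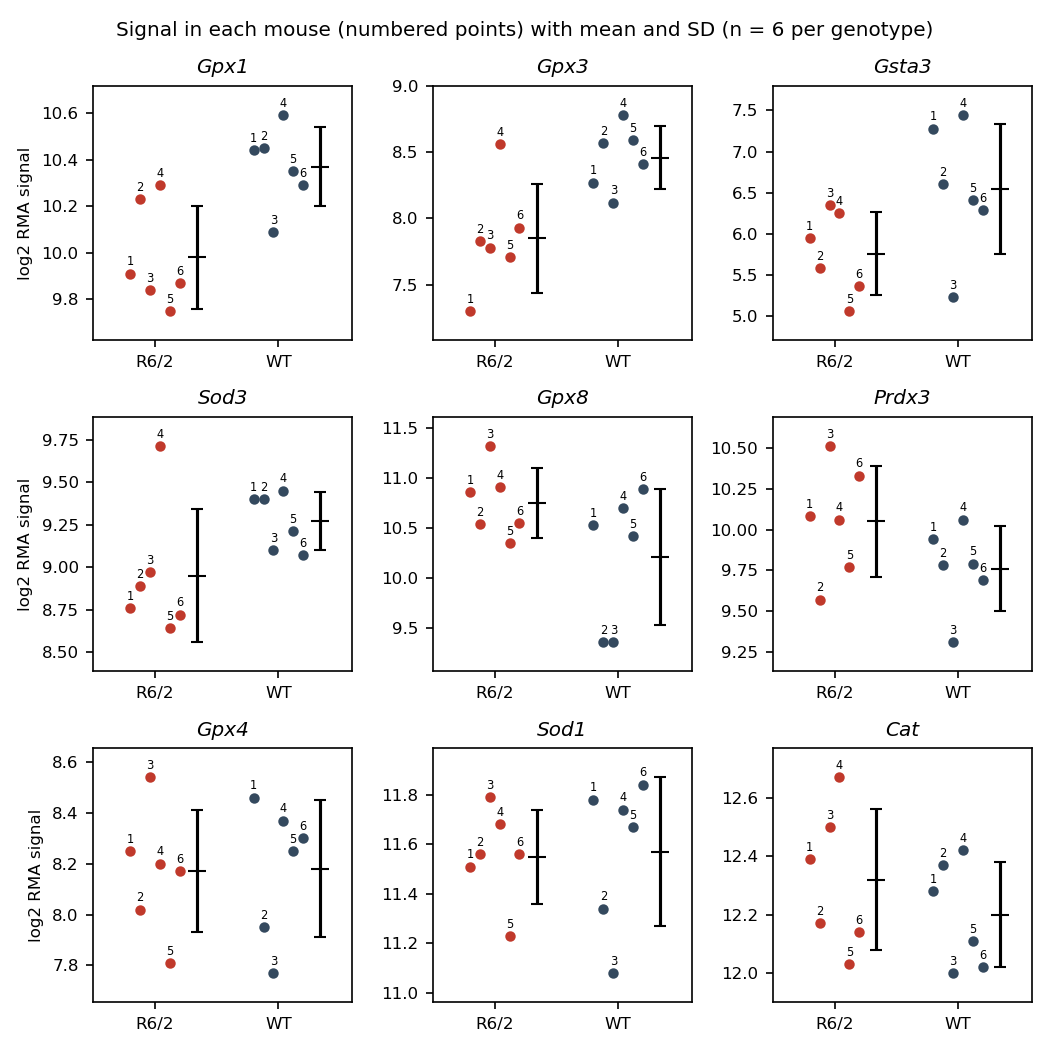
Log2 signal (y axis) of 9 antioxidant enzyme genes in each R6/2 mouse (red, left) and WT mouse (blue, right), numbered 1 to 6, with the mean and SD of 6 mice beside them. *Gpx1*, *Gpx3* and *Sod3* are lower in most R6/2 mice with mouse 4 as a high value, whereas most mice of either genotype lie within the other's range for *Gpx4*, *Sod1* and *Cat*.

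Superoxide dismutases turn superoxide into hydrogen peroxide in 3 compartments, and their genes differed in sign and size. *Sod3*, the extracellular copper and zinc enzyme (chr5:52363804-52369738), had signals of 8.76, 8.89, 8.97, 9.71, 8.64 and 8.72 in R6/2 mice 1 to 6, against 9.40, 9.40, 9.10, 9.45, 9.21 and 9.07 in WT mice 1 to 6. Here too 5 R6/2 mice were below every WT mouse, and mouse 4 was above every WT mouse. The difference was -0.32 (95% interval -0.68 to 0.04; limma adjusted p = 0.869), and -0.47 without R6/2 mouse 4. *Sod1*, the cytosolic enzyme, ranged from 11.23 to 11.79 in R6/2 and 11.08 to 11.84 in WT mice, and differed by -0.02 (95% interval -0.32 to 0.28). *Sod2*, the manganese enzyme of mitochondria, had a lowest, median and highest signal of 10.65, 11.04 and 11.53 in R6/2, against 9.96, 10.96 and 11.19 in WT mice. Its difference of 0.24 (95% interval -0.24 to 0.71) was within the spread of both groups.

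Catalase and the peroxiredoxins break down hydrogen peroxide without glutathione. *Cat*, the peroxisomal enzyme, averaged 12.32 ± 0.24 in R6/2 and 12.20 ± 0.18 in WT mice (SD, n = 6 each), a difference of 0.12 (95% interval -0.14 to 0.38). *Prdx3*, the mitochondrial peroxiredoxin, had signals of 10.08, 9.57, 10.51, 10.06, 9.77 and 10.33 in R6/2 mice 1 to 6, against 9.94, 9.78, 9.31, 10.06, 9.79 and 9.69 in WT mice 1 to 6. R6/2 mice 1, 3, 4 and 6 were above every WT mouse, mouse 4 by less than the rounding, and R6/2 mice 2 and 5 lay among the WT values. The difference was 0.29 (95% interval -0.06 to 0.65; limma adjusted p = 0.874). *Prdx4* of the endoplasmic reticulum differed by -0.17 (95% interval -0.40 to 0.07), and the cytosolic *Prdx2* by 0.07 (95% interval -0.21 to 0.34).

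Genes of glutathione synthesis and recycling had small mean differences between genotypes, with intervals that held 0. The ligase that sets the pace of synthesis has a catalytic subunit, *Gclc*, which differed by 0.08 (95% interval -0.13 to 0.29), and a modifier subunit, *Gclm*, which differed by 0.12 (95% interval -0.36 to 0.60). *Gss*, which adds the last amino acid, differed by 0.14 (95% interval -0.16 to 0.43). *Gsr*, the reductase, averaged 8.60 ± 0.19 in R6/2 and 8.68 ± 0.24 in WT mice (SD, n = 6 each), a difference of -0.08 (95% interval -0.35 to 0.18). *Gclc* had the smallest spread of all measured members, with a pooled SD within genotypes of 0.16, so that its interval leaves room for only small differences.

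The thioredoxin genes also had small mean differences with intervals that held 0, and high values in 1 mouse. *Txn1* (cytosol) and *Txn2* (mitochondria) differed by 0.00 (95% interval -0.23 to 0.23) and 0.04 (95% interval -0.19 to 0.28). *Txnrd1*, the cytosolic reductase, had a lowest, median and highest signal of 8.68, 8.78 and 9.34 in R6/2, against 8.54, 8.83 and 9.02 in WT mice. Its highest value came from R6/2 mouse 3, and the other R6/2 mice lay inside the WT range, so the difference was 0.03 (95% interval -0.23 to 0.30) and -0.07 without that mouse. *Txnrd2*, the mitochondrial reductase, averaged 7.59 ± 0.24 in R6/2 and 7.40 ± 0.20 in WT mice (SD, n = 6 each), a difference of 0.19 (95% interval -0.08 to 0.46), also with R6/2 mouse 3 far above the rest at 8.05, and the difference was 0.10 without it. *Txnrd3* differed by -0.08 (95% interval -0.47 to 0.31).

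*Nqo1* and *Srxn1* are often used as readouts of NRF2. *Nqo1*, a quinone reductase, had signals of 5.60, 5.48, 6.92, 6.01, 5.53 and 5.82 in R6/2 mice 1 to 6, against 6.02, 5.65, 5.23, 6.10, 5.95 and 5.98 in WT mice 1 to 6. R6/2 mouse 3 stood alone above all others and WT mouse 3 alone below, with a difference between genotypes of 0.07 (95% interval -0.44 to 0.58) that was -0.13 without R6/2 mouse 3. *Srxn1*, which repairs over-oxidised peroxiredoxins, averaged 7.69 ± 0.35 in R6/2 and 7.82 ± 0.40 in WT mice (SD, n = 6 each), a difference of -0.13 (95% interval -0.56 to 0.30).

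Glutathione S-transferases were the family with the most members on 1 side. Of 15 measured genes, 12 were lower in R6/2 mice, with a median log2 difference of -0.16 and a range of -0.78 to 0.11, and 1 of them had an unadjusted limma p under 0.05. Over all genes tested, 45.8% were lower, and 3.31% were lower at that p. In the fit with the adipocyte mean as a covariate, added after the data were seen, some of the 12 changed sign. *Gsta4*, *Gstm1*, *Gstm2* and *Gsto2* then differed by 0.04, 0.07, 0.05 and 0.10, and the rest of the 12 stayed lower. The genes of the *Gstm* group on chromosome 3 and of the *Gstp* group on chromosome 19 are close relatives in sequence and make up 6 of the 12; whether their probe sets read each other's transcripts was not tested.

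*Gsta3*, an alpha class transferase, differed the most of all members. Signals were 5.95, 5.58, 6.35, 6.25, 5.06 and 5.36 in R6/2 mice 1 to 6, against 7.28, 6.60, 5.23, 7.44, 6.41 and 6.29 in WT mice 1 to 6. WT mice 1, 2, 4 and 5 were above every R6/2 mouse, whereas WT mouse 3 was among the lowest of all 12. Means of 5.76 ± 0.51 in R6/2 and 6.54 ± 0.79 in WT mice (SD, n = 6 each) differed by -0.78 (95% interval -1.54 to -0.02), or 0.581 times the WT signal (limma adjusted p = 0.841; SAM q = 32.0%), and the two-sided exact permutation p was 0.0693. The signal is near the level limit of 5.44 in R6/2 and 5.45 in WT mice, and the unadjusted limma p stayed under 0.05 in only 3 of the 12 fits that left out 1 mouse.

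The remaining transferases had intervals that held 0. *Gsta4*, which conjugates the lipid aldehyde 4-hydroxynonenal, had a lowest, median and highest signal of 8.85, 9.37 and 10.20 in R6/2, against 8.57, 9.77 and 10.24 in WT mice. The lowest value was that of WT mouse 3, and the difference was -0.19 (95% interval -0.79 to 0.41), -0.41 without that mouse and -0.07 without R6/2 mouse 1. *Gstk1*, a mitochondrial and peroxisomal transferase, differed by -0.36 (95% interval -0.81 to 0.09). *Gstp1* averaged 9.81 ± 0.26 in R6/2 and 9.97 ± 0.29 in WT mice (SD, n = 6 each), a difference of -0.16 (95% interval -0.49 to 0.17), and its neighbours *Gstp2* and *Gstp3* differed by -0.16 and -0.03. *Gstt1* differed by -0.19 and *Gstt3* by -0.18, with 4 and 2 R6/2 mice below every WT mouse and R6/2 mouse 4 above every WT mouse in both. *Gstm1*, *Gstm2*, *Gstm7* and *Gsto2* differed by -0.06, -0.08, -0.16 and -0.04, while *Gstm4*, *Gsto1* and *Gstt2* differed by 0.11, 0.01 and 0.03. *Gstm3*, *Gstm6* and *Gstt4* were below the level limit. Among the membrane-bound transferases, *Mgst1* differed by 0.11 (95% interval -0.34 to 0.57), *Mgst2* by 0.10 (95% interval -0.42 to 0.63) and *Mgst3* by -0.17 (95% interval -0.62 to 0.28).

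Mice of the same genotype differed by more than the genotype means did. The pooled SD within genotypes had a median of 0.30 over the 41 genes, beside the median difference of 0.12 in size, and of 0.21 over all genes, and ranged up to 0.67 for *Gsta3*. The heat map of the 41 genes by mouse shows that the same few mice were high or low across families. WT mouse 3 had the lowest signal of all 12 mice in 20 of the 41 genes and R6/2 mouse 5 in 11, and R6/2 mouse 3 had the highest in 15, WT mouse 4 in 10 and R6/2 mouse 4 in 8. The median deviation from each gene's mean was -0.08, -0.13, 0.26, 0.21, -0.32 and -0.09 in R6/2 mice 1 to 6, against 0.22, -0.11, -0.32, 0.26, 0.01 and 0.05 in WT mice 1 to 6. Both genotypes thus held mice at both ends. *Gstp3* ran the other way, being lowest in R6/2 mouse 4 and highest in WT mouse 3.

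**Figure D3:**
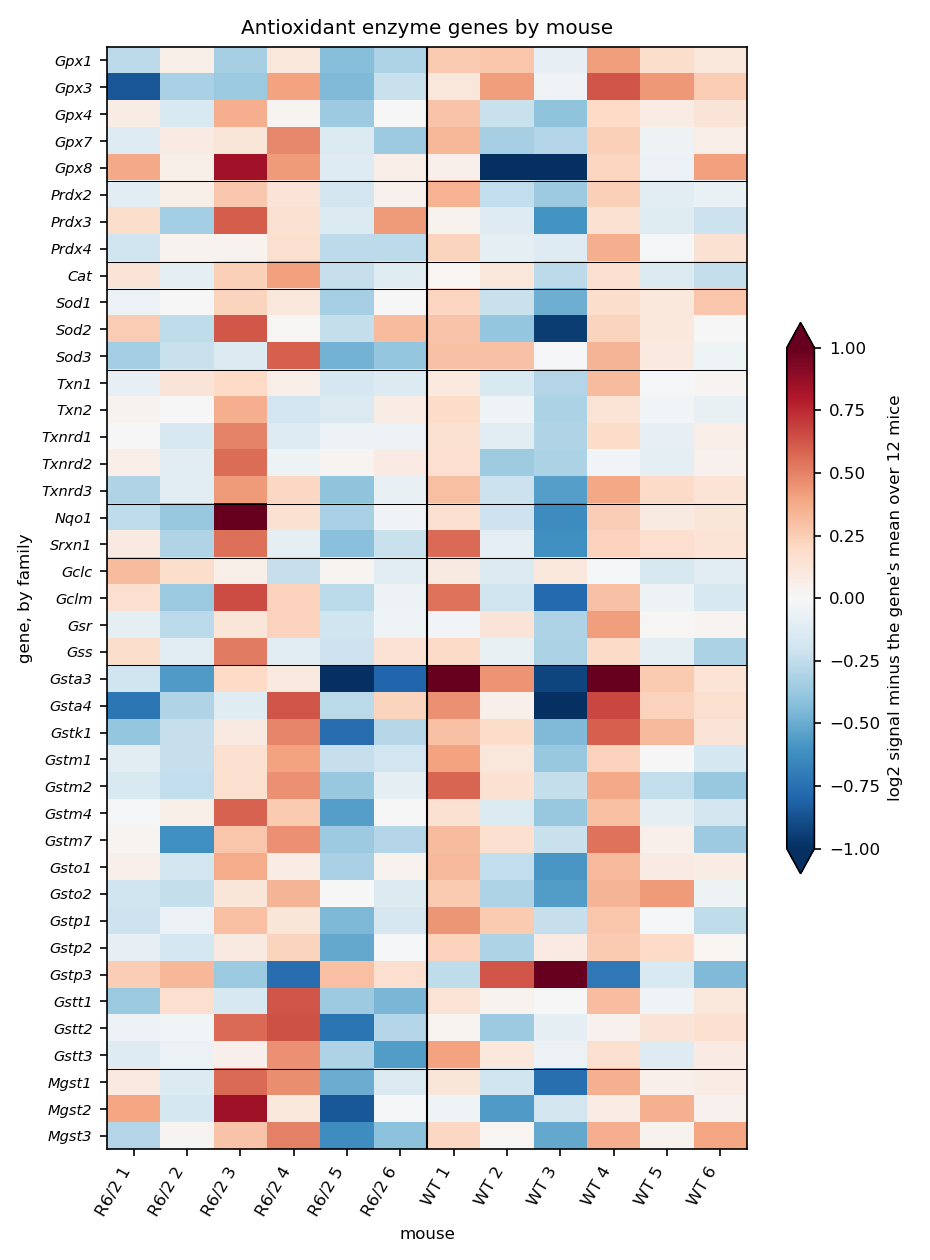
Log2 signal minus the gene's mean over the 12 mice (colour, clipped at -1 and 1) of the 41 measured genes (rows, by family) in R6/2 mice 1 to 6 (left) and WT mice 1 to 6 (right). R6/2 mouse 5 and WT mouse 3 are low and R6/2 mice 3 and 4 and WT mice 1 and 4 high in most rows.

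This order of mice ran alongside the markers of other cell types. The highest of the 12 signals lay in R6/2 mice 3 or 4 or WT mouse 4, which had the lowest lymphocyte and lymph node means, for 33 of the 41 genes (80.5%), against 46% of all genes tested. The lowest lay in R6/2 mouse 5 or WT mouse 3, which had the highest lymphocyte means, for 31 of 41 (75.6%), against 27.4% of all genes. These mice were picked out after their values were seen, and the shares are a description. R6/2 mouse 5 and WT mouse 3 also had the lowest adipocyte marker means, 10.71 each. R6/2 mouse 3 also had the highest skeletal muscle and brown adipocyte means of the 12 mice, 10.78 and 10.08. In R6/2 mouse 4 and WT mouse 4 the muscle means were 7.94 and 6.08 and the brown adipocyte means 7.88 and 8.04. In a fit with the lymphocyte mean as a covariate, 6 members were lower and 2 higher in R6/2 at an unadjusted limma p of 0.05, where 12.1% of all genes passed. The 6 were *Gpx1*, *Gpx3*, *Gsta3*, *Gstk1*, *Prdx4* and *Sod3*, the 2 were *Gpx8* and *Prdx3*, and their differences were within 0.01 of those without the covariate.

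**Figure D4:**
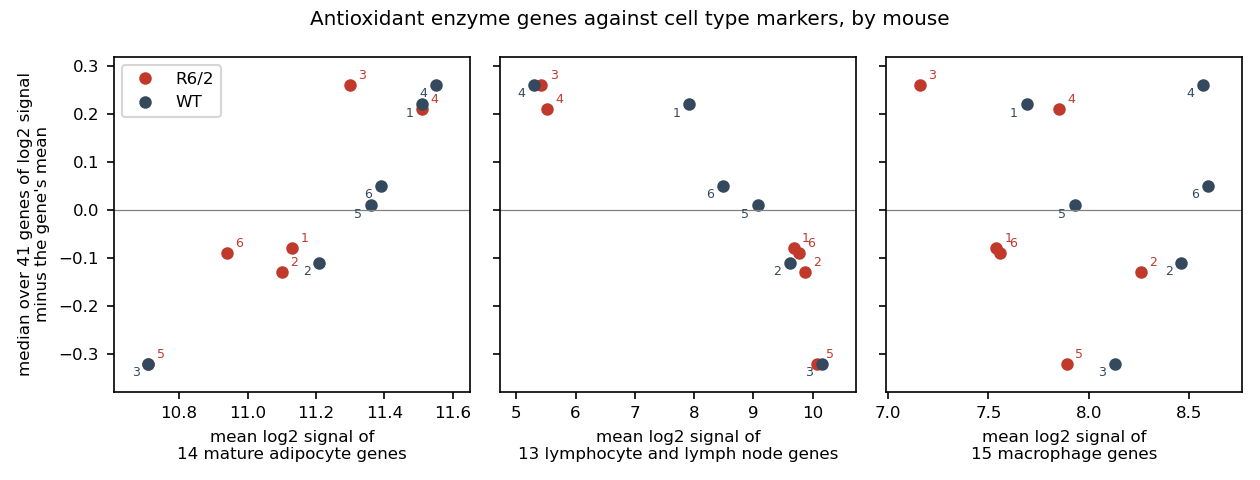
Median over 41 antioxidant enzyme genes of the log2 signal minus the gene's mean (y axis) against the mean log2 signal of 14 adipocyte, 13 lymphocyte and 15 macrophage genes (x axes) in R6/2 (red) and WT (blue) mice, numbered 1 to 6. The 2 mice at -0.32, R6/2 mouse 5 and WT mouse 3, have the lowest adipocyte and the highest lymphocyte means.

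The macrophage mean was lower in R6/2 than in WT mice. With the macrophage mean as a covariate, 0 members had an unadjusted limma p under 0.05, where 2.47% of all genes did, and 0 had an adjusted p under 0.05; SAM was not run with covariates. The difference was then -0.27 for *Gpx1*, -0.46 for *Gpx3* and -0.95 for *Gsta3*. With the adipocyte mean as a covariate, added after the data were seen, 3 members were lower (*Gpx1* by -0.30, *Gpx3* by -0.50 and *Gsta3* by -0.43) and 6 were higher (*Cat*, *Gpx8*, *Gstm4*, *Mgst1*, *Prdx3* and *Sod2*) at an unadjusted limma p of 0.05, where 14% of all genes passed. With the muscle mean as a covariate, 3 members were lower (*Gpx1* by -0.36, *Gpx3* by -0.62 and *Gsta3* by -0.87) and 0 higher at that p, where 4.59% of all genes passed. The median difference over the measured members was -0.02 without a covariate. It was -0.02, -0.08, -0.12 and 0.09 with the lymphocyte, muscle, macrophage and adipocyte means as covariates. The part of macrophages, adipocytes, lymph node or muscle in the differences of the members was not tested beyond these fits. No fit took the brown adipocyte mean as a covariate, so the part of brown adipocytes was not tested.

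The genes around the antioxidant enzymes were counted in 8 lists, all chosen with earlier results of these data known. Among 15 measured regulators of NRF2, 3 were lower and 12 higher in R6/2 (45.8% of all genes were lower). At an unadjusted limma p of 0.05, which 5.84% of all genes passed, 1 was called. That gene was *Cul3*, the scaffold of the ligase that marks NRF2 for breakdown, at 10.43 ± 0.11 in R6/2 and 10.27 ± 0.09 in WT mice (SD, n = 6 each; difference 0.16; limma adjusted p = 0.839). The gene of NRF2 itself, *Nfe2l2*, differed by -0.02 (95% interval -0.18 to 0.14), and *Mafg* and *Park7* by -0.08 and 0.15.

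Of 21 measured NRF2 targets outside the enzyme families, 10 were lower and 11 higher (45.8% of all genes were lower). *Hmox1*, the heme oxygenase, was the only 1 of them with an unadjusted limma p under 0.05 (3.31% of all genes were lower at this level). Its signals were 6.98, 7.05, 7.17, 7.20, 7.15 and 6.89 in R6/2 mice 1 to 6, against 7.44, 7.47, 8.15, 8.07, 7.49 and 9.10 in WT mice 1 to 6. Every R6/2 mouse was below every WT mouse (0.186% of all genes), and the WT mice were far more spread. The difference was -0.88 (95% interval -1.41 to -0.35), or 0.543 times the WT signal, with a SAM q of 3.98% and a limma adjusted p of 0.611. Macrophages, whose markers were lower in R6/2, are known for high *Hmox1*; their part in this difference was not tested. *Abcc3* differed by -0.27, *Cbr1* by 0.39 and *Akr1b10* by 0.28, each with an adjusted limma p of 0.874.

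In the rest of the glutathione cycle 11 of 20 measured genes were lower (55%, against 45.8% of all genes), 3 of them at an unadjusted limma p of 0.05 (3.31% of all genes). *Dpep1*, a dipeptidase that splits the breakdown product of glutathione, averaged 7.88 ± 0.65 in R6/2 and 8.73 ± 0.40 in WT mice (SD, n = 6 each), a difference of -0.85 (limma adjusted p = 0.710). *Glrx*, glutaredoxin, averaged 7.78 ± 0.23 in R6/2 and 8.13 ± 0.20 in WT mice (SD, n = 6 each), a difference of -0.35 (limma adjusted p = 0.736). *Dpep2*, a related dipeptidase named after its value was seen, differed by -0.60 (limma adjusted p = 0.813). *Oplah* and *Glrx2* differed by 0.48 and 0.11 without passing.

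Suppliers of NADPH gave 6 lower and 9 higher of 15 measured genes (45.8% of all genes were lower). At an unadjusted limma p of 0.05, 2 were higher (2.53% of all genes). *Nnt*, the mitochondrial transhydrogenase that makes NADPH, averaged 8.21 ± 0.23 in R6/2 and 7.81 ± 0.30 in WT mice (SD, n = 6 each), a difference of 0.40 (limma adjusted p = 0.775). *Me3*, a mitochondrial malic enzyme, averaged 5.91 ± 0.44 in R6/2 and 5.44 ± 0.12 in WT mice (SD, n = 6 each), a difference of 0.47 (limma adjusted p = 0.775), and passed the level limit through the R6/2 mice only. *Aldh1l2* and *H6pd* differed by -0.28 and -0.22 without passing.

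The lists for thioredoxin partners, selenoprotein synthesis and other selenoproteins held no gene with an unadjusted limma p under 0.05, which 5.84% of all genes passed. Of 23 thioredoxin partners 9 were lower, of 9 genes that make selenocysteine and its proteins 1 was lower, and of 12 other selenoproteins 8 were lower. Over all genes, 45.8% were lower. Among the thioredoxin partners *Tmx4* and *Txndc9* differed by 0.25 and 0.14, and *Txndc17* and *Txndc5* by -0.12 and -0.07. *Sephs2* and *Sepsecs*, which make the selenium donor and selenocysteine, differed by 0.38 and 0.22, and *Secisbp2*, whose protein binds selenoprotein transcripts, by -0.02. Of the other selenoproteins *Selenot* and *Dio2* differed by 0.12 and 0.22, and *Selenon* and *Selenom* by -0.22 and -0.20.

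Genes of NADPH oxidase and other sources of oxidants were lower in 10 of 12 cases, against 45.8% of all genes. Of them, 1 passed an unadjusted limma p of 0.05 (3.31% of all genes were lower at this level). The phagocyte oxidase genes *Cyba*, *Cybb*, *Ncf1*, *Ncf4* and *Rac2* are 5 of the 10, at -0.46, -0.44, -0.24, -0.11 and -0.11, and their intervals all held 0. The signals of these 5 genes were lowest in R6/2 mice 3 and 4 and WT mouse 4, the mice with the lowest lymphocyte and lymph node means. The 15 macrophage markers were all lower in R6/2. The part of lymph node or macrophages in these differences was not tested. The gene that passed, *Xdh* for xanthine dehydrogenase, averaged 8.85 ± 0.47 in R6/2 and 9.54 ± 0.43 in WT mice (SD, n = 6 each), a difference of -0.69 (limma adjusted p = 0.720). *Aoc3* differed by -0.32, and *Maob* and *Maoa* by 0.08 and 0.05. The plot of the 8 lists shows each gene's difference.

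**Figure D5:**
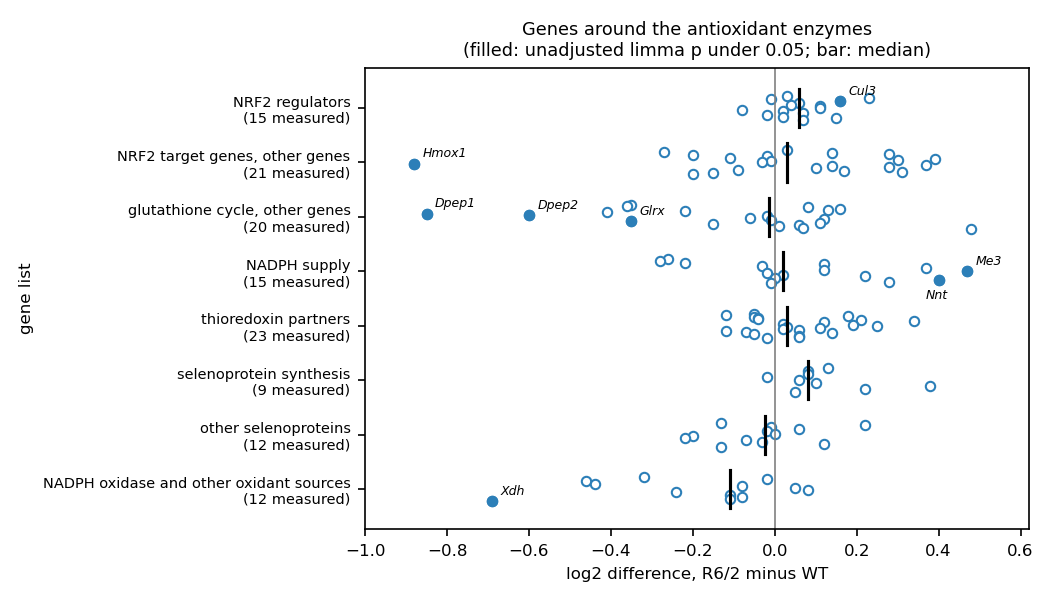
Log2 difference (R6/2 minus WT, x axis) of the measured genes in 8 lists around the antioxidant enzymes (rows), with a bar at each median. Medians lie between -0.11 and 0.08, and the filled and named points are the 8 genes with an unadjusted limma p under 0.05.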

How the data were processed

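The authors extracted total RNA, kept samples of a stated integrity, and normalized all 12 arrays with RMA (Affymetrix Expression Console 1.1.2); the deposited table gives 1 log2 value per probe set and array. Probe sets were named through GEO's platform annotation: of 41345, 23521 had 1 symbol, 1820 had several and 16004 had none. The value table marks no negative controls, so a probe set was kept where its mean in at least 1 genotype was above the median of probe sets that carry no symbol (5.44 in R6/2 and 5.45 in WT mice). This left 15328 probe sets and 14550 genes, merged by the median. *Prdx1*, *Prdx5*, *Prdx6*, *Gsta1*, *Gsta2*, *Gstm5* and *Gstz1* had no probe set with 1 symbol in that annotation and were not tested.

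Genotypes were compared with limma 3.58.1 (lmFit, eBayes) in R 4.3.3, R6/2 minus WT, adjusted over all 14550 genes; the study's SAM was rerun with 100 regroupings. Both were tested on simulated data. With 6 mice against 6, the smallest two-sided exact permutation p is 0.00216. The number of arrays limits the precision, and each label is taken as 1 mouse. Alternatives covered the level filter, merging, normalization, variance model, array weights, SAM, a replicate block, marker means as covariates and leaving out each mouse.

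The members, gene lists and tests were chosen with earlier results of these data known. Described in full were members with an unadjusted limma p under 0.05, those whose genotypes do not overlap, the gene of highest mean signal in each family (a choice of examples, not a comparison of amounts) and those with an outlying mouse, and from each list up to 2 genes of smallest p in each direction. Promoter windows and gene positions are from RefSeq (GRCm38.p6). Plots were drawn with matplotlib 3.10.9 in Python 3.11.15.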

Additional observations from a re-analysis of the deposited data

Results flagged for a closer look

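A gap test looked in each genotype of the 41 measured genes for a mouse far from the other 5, and 5 of 82 groups had one. Chance gives about 1 in 20 groups, or 4.1 of 82. R6/2 mouse 3 was the high value for *Txnrd1*, at 9.34 with the next R6/2 mouse at 8.84, for *Txnrd2*, at 8.05 with the next at 7.58, and for *Nqo1*, at 6.92 with the next at 6.01. R6/2 mouse 4 was the high value for *Sod3*, at 9.71 with the next at 8.97. WT mouse 3 was the low value for *Gsta4*, at 8.57 with the next WT mouse at 9.62.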

How the results depend on the processing

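*Gpx1* and *Gpx3* were lower in R6/2 mice under every alternative run, by log2 differences of -0.45 to -0.27 and -0.80 to -0.46. Their unadjusted limma p stayed under 0.05 in 25 of 26 fits, the exception being the macrophage covariate; *Gsta3* (-1.04 to -0.43) did so in 15 of 26. Array weights gave 8 members lower at an unadjusted p of 0.05, where 19.1% of all genes passed in either direction, and 1 with an adjusted p under 0.05, *Gpx3* (-0.80, limma adjusted p = 0.0482; 0.0482 to 1.00 over all alternatives), and 46 such genes in all. The lymphocyte covariate gave 6 members lower, 2 higher and 16 genes in all past the adjusted p, the macrophage covariate 0 members lower, the adipocyte covariate, chosen after seeing the data, 6 higher, and SAM 63 genes at its q of 5%. Without 1 mouse, 2 to 7 members were lower and 0 to 1 higher, the 7 without R6/2 mouse 4 (9.92% of all genes passed in either direction, against 5.84% with all mice), and 0 to 23 genes passed the adjusted p, 23 without R6/2 mouse 4 and 1 without WT mouse 1 or 3; the 1 higher was *Prdx3* without R6/2 mouse 2 and *Gpx8* without WT mouse 6. The median over members stayed between -0.14 and 0.09. The cause of these changes was not tested.

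Differences near 0 changed sign. *Txnrd1* was 0.00 after quantile normalization, -0.04 with array weights, -0.02 and -0.10 with the muscle and macrophage covariates and -0.07 to 0.07 without 1 mouse. *Nqo1* was -0.21 with array weights, -0.08 and -0.20 with those covariates and -0.13 to 0.15 without 1 mouse. *Mgst1* was -0.08 with array weights and -0.03 to 0.22 without 1 mouse. *Sod1* was 0.11 with the adipocyte covariate and -0.12 to 0.05 without 1 mouse, and with that covariate *Gsr* was 0.01, *Gsta4* 0.04 and *Srxn1* 0.04. The stricter level filter kept 35 members, without *Nqo1*.

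The deviations of same-numbered mice from their genotype means correlated from -0.785 to 0.776 over 6 pairs. Of these mice, 1 R6/2 and 2 WT mice correlated best with their own number. The highest value was for R6/2 and WT mice 4, with lymphocyte means of 5.52 and 5.30. The lowest was for R6/2 and WT mice 3, with means of 5.42 and 10.15. The correlations therefore cannot exclude a pairing by replicate number. With the replicate number as a block, 4 members were lower at an unadjusted p of 0.05 (*Gpx1*, *Gpx3*, *Gsta3* and *Sod3*; 5.20% of all genes passed in either direction), 0 had an adjusted p under 0.05, and 2 of all genes did.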

Other observations

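Members of the same families that shared their probe sets with other symbols were left out of every test, and 6 of 9 such probe sets were above the level limit. The probe set of *Gstz1* and *Pomt2* averaged 11.10 ± 0.35 in R6/2 and 11.38 ± 0.31 in WT mice (SD, n = 6 each; two-sided exact permutation p = 0.165). The brighter of those for *Prdx1* and *Gm21399* averaged 10.48 ± 0.21 in R6/2 and 10.51 ± 0.42 in WT mice (SD, n = 6 each), and the dimmer 6.06 ± 0.28 in R6/2 and 6.12 ± 0.33 in WT mice (SD, n = 6 each). The probe set of *Gstp1* and *Gstp2* averaged 9.26 ± 0.37 in R6/2 and 9.40 ± 0.28 in WT mice (SD, n = 6 each), and that of *Gstm5* and *4933431E20Rik* 7.67 ± 0.34 in R6/2 and 7.67 ± 0.56 in WT mice (SD, n = 6 each). The probe set of *Gsta1*, *Gsta2* and *Gm3776* averaged 6.29 ± 0.16 in R6/2 and 6.19 ± 0.30 in WT mice (SD, n = 6 each).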
